A study of Mus musculus with 90 samples.

Results

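The genes described here are 8 genes of metal handling: the metallothioneins Mt1, Mt2 and Mt3, the ferritin chains Fth1 and Ftl1, the transferrin receptor Tfrc, transferrin (Trf) and ceruloplasmin (Cp). Every probe whose platform symbol was a member was taken, which gave 10 of 25697 probes, 1 for each of 6 genes and 2 each for Fth1 and Tfrc. All 8 genes were among the 9741 genes tested. They were measured on Illumina bead arrays in left frontal cortex and left hippocampus of APP/PS1 mice, a double transgenic strain that develops amyloid plaques, and every animal of every group carried these transgenes. A pump delivered 40 µg per day into the right lateral ventricle of either CD33 ASO, an antisense strand that lowers the transcript of Cd33, an inhibitory receptor of myeloid cells, or CON ASO, a control strand without a target. Pumps were implanted when the mice were 18 weeks old, ran for 28 or for 14 days, and in every group the mice were 22 weeks old at collection. Animals infused for 14 days had their pump removed when it ended and spent the rest of the study without one, while animals infused for 28 days received a second pump. No animals without transgenes and none without an ASO were analysed here, so every difference below is between ASOs, infusions or tissues within this model.

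In frontal cortex there were 14 CD33 ASO and 14 CON ASO arrays at 28 days, and 9 and 9 at 14 days. In hippocampus there were 13 and 13 at 28 days, and 9 and 9 at 14 days. Among the 47 animals behind the 90 arrays, 43 gave both tissues, and each array of a group is a separate animal. The groups were spread over 12 chips, 6 per tissue, and a chip held 1 tissue. Between 42.8% and 51.6% of probes were detected on an array, and arrays of 1 group correlated at 0.976 to 0.993. Cd33 itself fell in hippocampus, with a log2 difference of -1.46 ± 0.14 at 28 days and -1.29 ± 0.17 at 14 days (standard error, limma), and in cortex the difference was -0.90 ± 0.13 at 28 days and -0.69 ± 0.17 at 14 days, the last not past the threshold (adjusted p = 0.327). The animal numbered 7, labelled CD33 ASO at 28 days, had Cd33 in the range of the CON ASO arrays in both tissues, and results were also computed without it. Of 5 tested markers of hippocampal identity, C1ql2, Fibcd1 and Prox1 were lower in cortex, the direction the tissue labels call for, while Wfs1 was higher there. Of 5 neocortical markers 4 were higher in cortex, and Fezf2 was lower.

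Metallothioneins are small cysteine-rich proteins that bind zinc and copper. Mt1 and Mt2 are induced in many cells, astrocytes among them, by metals through the transcription factor MTF1 and by glucocorticoids, and Mt3 is a brain form. Iron enters cells when transferrin binds the transferrin receptor, it is stored inside a shell of ferritin heavy (Fth1) and light (Ftl1) chains, and ceruloplasmin is a copper-carrying ferroxidase, present on astrocytes and secreted into plasma, that oxidises iron leaving the cell. In rodent brain, transferrin is made chiefly by oligodendrocytes and by choroid plexus.

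The 3 metallothionein genes lie in a cluster on mouse chromosome 8 (GRCm38.p6, RefSeq): Mt3 at 94152607 to 94154148, Mt2 at 94172618 to 94173567 and Mt1 at 94178883 to 94180327, all read from the plus strand. MTF1 binds metal response elements, whose core was searched here as TGCACNC and TGCGCNC, where N is any base, on both strands. The forms cannot match at the same place. The 250 bases before each RefSeq start used here are shown because the 3 genes share a locus, and capitals mark the matches.
Mt1 (chr8:94178839-94179088): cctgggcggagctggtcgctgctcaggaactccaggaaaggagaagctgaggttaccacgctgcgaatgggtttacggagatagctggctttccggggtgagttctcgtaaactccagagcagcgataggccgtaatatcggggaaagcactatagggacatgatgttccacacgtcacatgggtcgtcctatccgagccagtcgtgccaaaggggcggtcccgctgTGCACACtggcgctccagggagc
Mt2 (chr8:94172368-94172617): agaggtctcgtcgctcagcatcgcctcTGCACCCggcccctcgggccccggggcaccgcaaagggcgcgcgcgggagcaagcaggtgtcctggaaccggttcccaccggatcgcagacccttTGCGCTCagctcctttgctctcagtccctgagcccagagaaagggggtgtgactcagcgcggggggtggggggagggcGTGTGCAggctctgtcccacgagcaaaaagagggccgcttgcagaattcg
Mt3 (chr8:94152357-94152606): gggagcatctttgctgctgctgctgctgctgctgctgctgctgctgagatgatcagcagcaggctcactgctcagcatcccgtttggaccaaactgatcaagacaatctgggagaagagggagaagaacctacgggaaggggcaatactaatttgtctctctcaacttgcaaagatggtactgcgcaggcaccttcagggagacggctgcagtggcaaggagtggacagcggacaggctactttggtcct
The Mt2 stretch held 3 matches, which began 223, 128 and 50 bases before the start, the Mt1 stretch held 1, which began 23 bases before it, and the Mt3 stretch held 0. In the 50 bases after the start, which are not printed, there were 2 further matches for Mt1, 1 for Mt2 and 1 for Mt3. The background was counted over the 250 bases before the start only, in 32851 mouse promoter windows. Of these, 10.4% held TGCACNC, 12.5% held TGCGCNC, 21.4% held at least 1 match of either form, and 1.26% held at least 3. The matches after the start have no such background. A match is a run of letters and was not tested for binding. The Mt1 start used lies inside the annotated gene, which begins at 94178883, so most of the printed Mt1 stretch is gene sequence. The bases before the annotated Mt1 gene were mostly not searched, so the Mt1 count cannot be set against that of Mt2 or Mt3.

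The other members lie apart: Fth1 on chromosome 19 (9980600 to 9985111), Ftl1 on chromosome 7 (45457944 to 45459886), Tfrc on chromosome 16 (32608896 to 32632794), Trf on chromosome 9 (103208876 to 103230286) and Cp on chromosome 3 (19956933 to 20009750). The authors' signal intensities were background-corrected and normalized by quantiles over all arrays, and levels below are log2 values on that scale. The raw intensity of the Mt1 probe lay between 24898 and 38568, that of Mt3 between 6821 and 14298, and that of Mt2 between 118 and 394. For iron handling, the main Fth1 probe lay between 32032 and 45407, Tfrc between 1914 and 3248, Trf between 4795 and 10322, and Cp between 85.8 and 444. These ranges belong to single probes, which differ in how brightly they bind, so no level is set against that of another gene. All were detected on all 90 arrays except Ftl1, whose probe lay between 19.5 and 85.2 and was detected on 53 of 90. The Fth1 probe was the brightest of the array on 41 arrays and among the 6 brightest on all of them, so quantile normalization left it only 6 distinct values, and a difference in its level could hardly be seen. The Mt1 probe, always among the 28 brightest, had 17 distinct values, while Mt2 and Cp had 90.

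**Figure D1:**
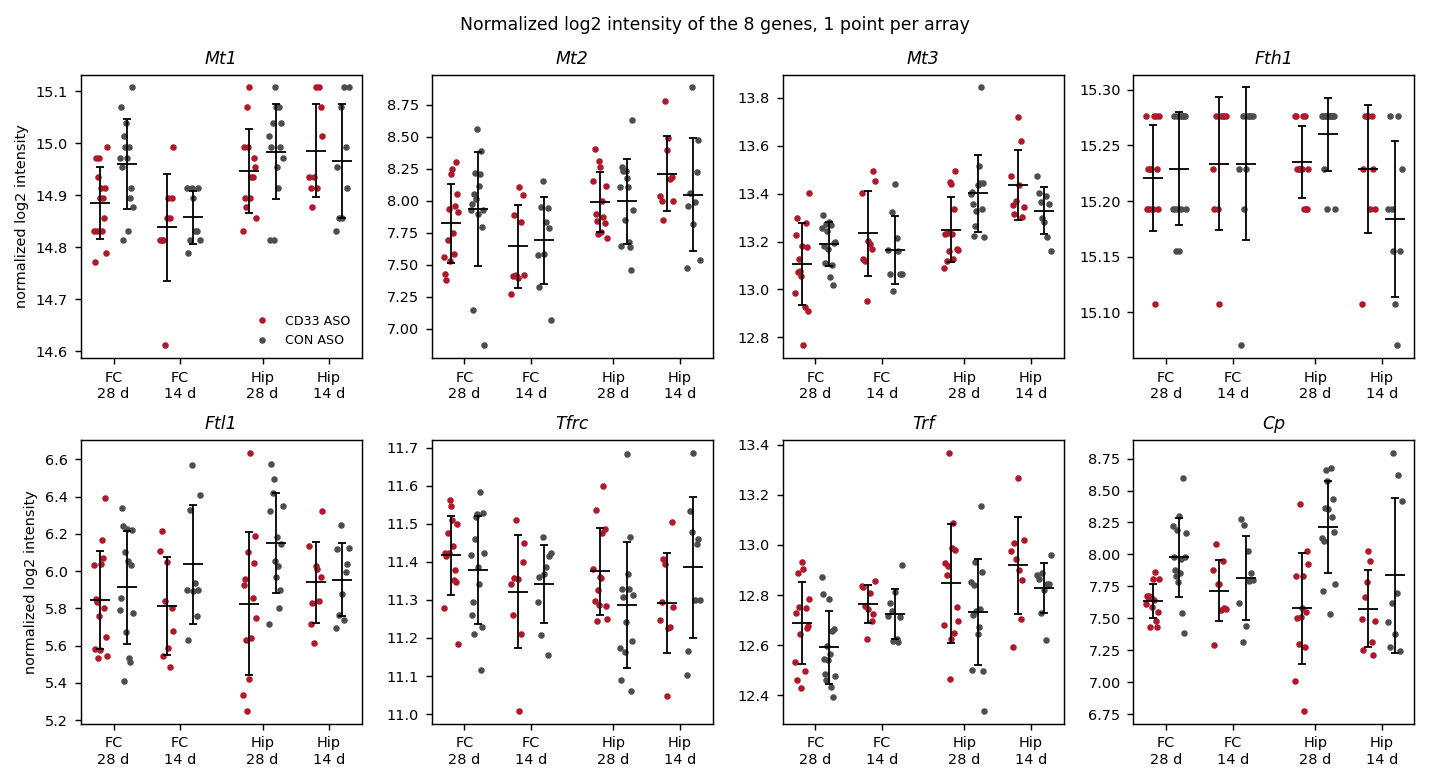
Normalized log2 intensity (y axis, a separate range for each gene) of the 8 genes on every array, for CD33 ASO (red) and CON ASO (grey) in frontal cortex (FC) and hippocampus (Hip) at 28 and 14 days; black bars are the mean and standard deviation of a group. Groups overlap in every panel, the Fth1 values form a few steps, and at 28 days most CD33 ASO points of Cp lie in the lower part of the CON ASO range or below it.

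The first comparison set CD33 ASO against CON ASO at each infusion length. None of the 8 genes passed the test. In frontal cortex 0 of 8 were called at 28 days, where 46 of 9741 genes were (0.472%), and 0 of 8 at 14 days, where no gene was (0%). In hippocampus 0 of 8 were called at 28 days, where 0.411% of genes were, and 0 of 8 at 14 days, where 0.0205% were. An unadjusted p under 0.05 was reached by Cp and Mt1 in cortex at 28 days (8.63% of all genes), by Cp, Ftl1 and Mt3 in hippocampus at 28 days (9.33%), and by 0 of 8 genes at 14 days in cortex (5.05%) and in hippocampus (5.92%). The median of the 8 differences was -0.07 in cortex and -0.03 in hippocampus at 28 days, and -0.02 and 0.03 at 14 days, beside medians over all genes between 0.00 and 0.01. Averaged over both infusions, 0 of 8 were called in cortex (0.636% of all genes, and 10.7% at an unadjusted p under 0.05) and in hippocampus (0.678% and 9.32%), with Cp the only member at an unadjusted p under 0.05 in each.

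**Figure D2:**
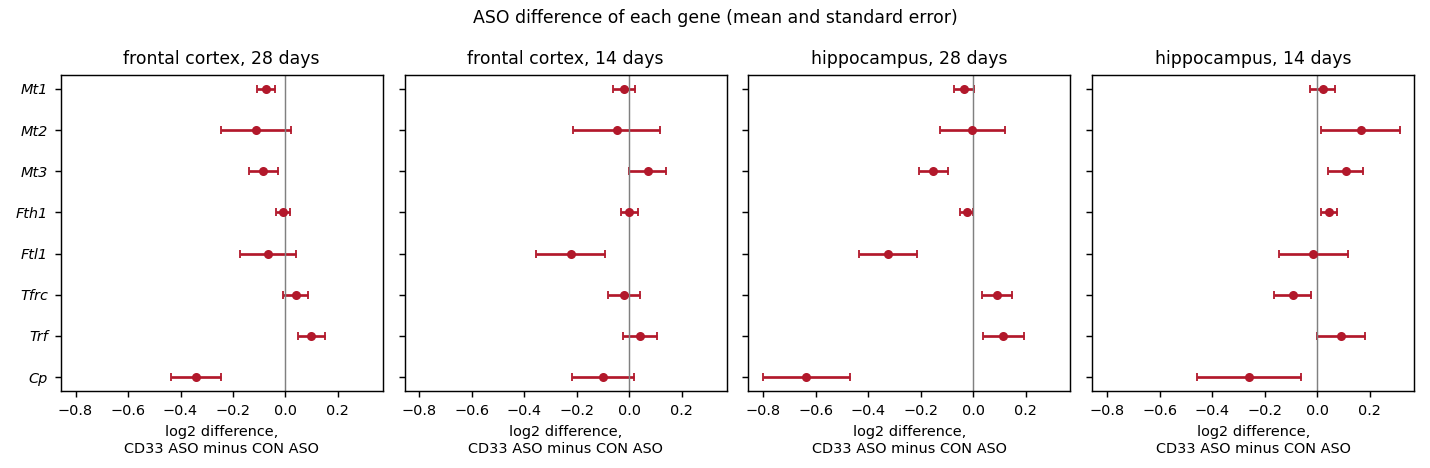
Difference in normalized log2 intensity between CD33 ASO and CON ASO (x axis) for each of the 8 genes, with its standard error from limma, in frontal cortex and hippocampus at 28 and 14 days. The Cp point lies farthest to the left at 28 days, at -0.34 in cortex and -0.64 in hippocampus, and 0 of these differences passed the threshold.

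Ceruloplasmin had the largest of the 8 differences at 28 days in each tissue. In hippocampus at 28 days its log2 level had a lowest, median and highest value of 6.78, 7.55 and 8.39 in the 13 CD33 ASO animals, against 7.54, 8.30 and 8.67 in the 13 CON ASO animals. The ranges overlapped, and 6 of 13 CD33 ASO animals lay below every CON ASO animal. The means were 7.58 ± 0.43 with CD33 ASO and 8.21 ± 0.36 with CON ASO (SD), a ratio of 0.643 and a difference of -0.64 ± 0.16, with an unadjusted p of 0.00037 and an adjusted p of 0.0723, just outside the threshold of 0.05. In frontal cortex at 28 days the values were 7.43, 7.65 and 7.86 in 14 CD33 ASO animals, against 7.39, 7.97 and 8.60 in 14 CON ASO animals, so that the CD33 ASO values filled the lower part of the CON ASO range. The difference there was -0.34 ± 0.10 (adjusted p = 0.108). At 14 days it was -0.10 ± 0.12 in cortex (adjusted p = 0.998) and -0.26 ± 0.20 in hippocampus (adjusted p = 0.924). The difference of the ASO effects at 28 and 14 days was -0.24 ± 0.15 in cortex and -0.38 ± 0.26 in hippocampus, neither past the threshold, and that between cortex and hippocampus was 0.22 ± 0.14 (adjusted p = 0.799).

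With the arrays of both infusions pooled, the direction of the Cp difference was the same on every chip. On each chip the mean of the CD33 ASO arrays was below that of the CON ASO arrays. The pooled difference was -0.51 to -0.03 on the 6 cortical chips and -0.61 to -0.41 on the 6 hippocampal chips. Without animal 7 the difference at 28 days was -0.33 in cortex (adjusted p = 0.131) and -0.63 in hippocampus (adjusted p = 0.0793). With weights on the arrays it was -0.32 in cortex (adjusted p = 0.0964) and -0.64 in hippocampus (adjusted p = 0.0430), the only one of the 12 alternatives of the hippocampal comparison in which it passed.

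**Figure D3:**
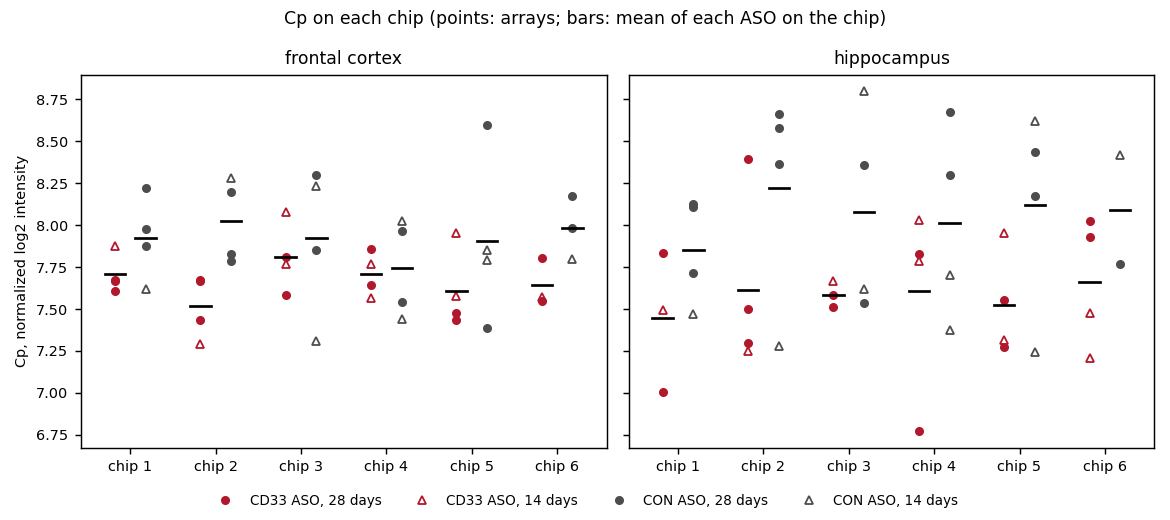
Normalized log2 intensity of Cp (y axis) on each of the 6 chips of frontal cortex and of hippocampus (numbered within the tissue), for CD33 ASO (red, left) and CON ASO (grey, right), with filled circles for 28 days, open triangles for 14 days and black bars for the mean of an ASO on a chip. The red bar lies below the grey bar on 6 of 6 chips in each tissue.

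Markers of vessels and of the cells around them differed in the same 28-day comparisons, and tissue RNA cannot tell fewer cells of a type from less RNA per cell. Of 6 endothelial markers, 5 in cortex and 6 in hippocampus had a difference below 0, with medians of -0.19 and -0.18. Vwf, the von Willebrand factor of endothelium, fell by 0.65 ± 0.09 in cortex and by 0.92 ± 0.17 in hippocampus (adjusted p = 7.29e-06 and 0.00207), and Ly6c1 fell in hippocampus by 0.28 ± 0.06 (adjusted p = 0.0123). Of 8 pericyte and fibroblast markers, 5 in cortex and 6 in hippocampus were below 0 (medians -0.07 and -0.19), and Lum, a fibroblast proteoglycan, fell in cortex by 0.53 ± 0.12 (adjusted p = 0.0134). The mean level of that list ran from 7.05 to 7.51 in CD33 ASO cortex, against 7.21 to 7.71 in CON ASO cortex, and from 7.28 to 7.87 in CD33 ASO hippocampus, against 7.52 to 8.16 in CON ASO hippocampus. With that mean as a covariate, an alternative added after the data were seen, the Cp difference at 28 days was -0.25 in cortex (adjusted p = 0.511) and -0.40 in hippocampus (adjusted p = 0.299). All 9 choroid plexus markers tested had a difference below 0 in hippocampus at 28 days (median -0.60), with 0 called, and with their mean as a covariate the hippocampal Cp difference was -0.58 (adjusted p = 0.145). The 3 red blood cell markers were also below 0 at 28 days (medians -0.44 in cortex and -0.82 in hippocampus), with 0 called. The part of endothelial and red cell RNA in the Cp values was not tested.

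Deviations of Cp from its group mean were set against those of each marker list. The Pearson correlation with the mean of the pericyte and fibroblast list was 0.34 over the 46 cortical arrays and 0.62 over the 44 hippocampal arrays, and with that of the endothelial list 0.12 in cortex and 0.57 in hippocampus. It was 0.10 in cortex and 0.23 in hippocampus with choroid plexus, and 0.04 and 0.16 with red blood cells. With astrocytes it was 0.05 and 0.37, with oligodendrocytes and myelin -0.31 and -0.20, and with microglia 0.02 and 0.20. It was 0.11 and -0.05 with neurons, -0.04 and -0.12 with hippocampal identity, and 0.02 and -0.12 with neocortical identity. The genes most like Cp in hippocampus were S100a11 (0.83), Mgp (0.82) and Anxa2 (0.81). In cortex they were Lrg1 (0.60), Anxa2 (0.57) and S100a11 (0.57), so S100a11, a calcium-binding protein, and Anxa2, an annexin, were near Cp in each tissue. These coefficients describe arrays that share RNA quality and dissection, and are given without a test.

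Among the metallothioneins, Mt3 differed between ASOs in opposite directions at the infusion lengths in hippocampus, without passing the threshold. At 28 days its level had a lowest, median and highest value of 13.09, 13.23 and 13.49 in CD33 ASO hippocampus, against 13.22, 13.40 and 13.84 in CON ASO hippocampus, and 6 of 13 CD33 ASO animals lay below every CON ASO animal. At 14 days the values were 13.30, 13.37 and 13.72 with CD33 ASO, against 13.16, 13.36 and 13.48 with CON ASO, and 2 of 9 CD33 ASO animals lay above every CON ASO animal. The difference was -0.15 ± 0.06 at 28 days (adjusted p = 0.299) and 0.11 ± 0.07 at 14 days (adjusted p = 0.884). The difference of the ASO effects was -0.26 ± 0.09, with an unadjusted p of 0.00419 and an adjusted p of 0.972; no gene passed in that contrast in hippocampus (0% called, 0 of 8 members, 4.71% of genes at an unadjusted p under 0.05). In cortex the Mt3 difference was -0.08 ± 0.06 at 28 days and 0.07 ± 0.07 at 14 days, and in the contrast of the ASO effects 0 of 8 members and no gene were called (0%, and 2.68% at an unadjusted p under 0.05).

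Mt1 in cortex at 28 days had a lowest, median and highest value of 14.77, 14.89 and 14.99 with CD33 ASO, against 14.81, 14.97 and 15.11 with CON ASO. The difference was -0.07 ± 0.03 (adjusted p = 0.502), and the groups overlapped except for 2 CD33 ASO animals below the CON ASO range. With the arrays of both infusions pooled, the CD33 ASO mean of Mt1 was below the CON ASO mean on 6 of 6 cortical chips. In the other ASO comparisons at a given infusion length the Mt1 difference lay between -0.04 and 0.02. Averaged over both infusions it was -0.05 ± 0.03 in cortex and -0.01 ± 0.03 in hippocampus. Mt2, the inducible neighbour of Mt1, differed by -0.11 ± 0.13 in cortex and -0.0042 ± 0.12 in hippocampus at 28 days, and by -0.05 ± 0.17 and 0.17 ± 0.15 at 14 days, all within the spread between animals.

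Of the genes of iron uptake and storage, Ftl1 had the largest difference. Its level in hippocampus at 28 days had a lowest, median and highest value of 5.25, 5.86 and 6.64 with CD33 ASO, where 5 of 13 arrays detected it, against 5.72, 6.15 and 6.58 with CON ASO, where 8 of 13 did. The Ftl1 difference of -0.32 ± 0.11 (adjusted p = 0.258) is therefore one between arrays near background. The main Fth1 probe differed by -0.01 ± 0.03 in cortex and -0.02 ± 0.02 in hippocampus at 28 days, and its second probe by 0.00 ± 0.03 and 0.06 ± 0.03, with signs that disagree in each tissue. Tfrc, through which cells take up transferrin-bound iron, differed by 0.04 ± 0.05 in cortex and 0.09 ± 0.06 in hippocampus at 28 days (second probe -0.03 ± 0.05 and 0.07 ± 0.06). Trf was the gene whose difference was above 0 in all 4 ASO comparisons, at 0.10 ± 0.05 in cortex and 0.11 ± 0.08 in hippocampus at 28 days and at 0.04 ± 0.06 and 0.09 ± 0.09 at 14 days. None of these 4 differences passed (adjusted p = 0.610 to 0.998). With the arrays of both infusions pooled, the Trf difference was above 0 on 5 of 6 chips in each tissue. Myelin markers went the other way at 28 days, with 8 of 9 differences below 0 in each tissue (medians -0.10 in cortex and -0.19 in hippocampus) and 0 called.

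The wider pathways, from lists of genes other than the 8, gave no call between ASOs either. Of 43 genes of iron uptake, storage, export and haem, 25 were tested and 0 were called at 28 days in either tissue, with 15 above and 10 below 0 in cortex (median 0.02) and 13 above and 12 below 0 in hippocampus (median 0.00). The smallest p belonged in cortex to Iscu, a scaffold of iron-sulphur cluster assembly (0.09 ± 0.04), and Pcbp2, an iron chaperone (0.08 ± 0.05), and in hippocampus to Scara5, a ferritin receptor detected on 18 arrays (-0.60 ± 0.27), and Glrx5 (-0.07 ± 0.04), with adjusted p-values of 0.458 to 0.642. At 14 days 0 of 25 were called, and the smallest p belonged in cortex to Blvrb (-0.15 ± 0.07) and Meltf (0.23 ± 0.11) and in hippocampus to Nfs1 (0.10 ± 0.05) and Heph (0.22 ± 0.11). Of 27 tested genes of zinc and copper handling 0 were called; Slc39a11, a zinc transporter, differed by 0.16 ± 0.05 in cortex (adjusted p = 0.172) and by 0.16 ± 0.04 in hippocampus (adjusted p = 0.0947) at 28 days. The next were Slc39a4 in cortex (0.22 ± 0.10) and Slc30a10 in hippocampus (0.17 ± 0.06). At 14 days they were Slc31a2 (-0.30 ± 0.16) and Slc39a6 (0.11 ± 0.06) in cortex, and Slc39a12 (0.23 ± 0.09) and Slc39a1 (-0.28 ± 0.13) in hippocampus.

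Lists of genes that respond to inducers of metallothionein were described in the same way. Of 15 glucocorticoid-responsive genes, 15 in cortex and 13 in hippocampus had a difference below 0 at 28 days, with medians of -0.17 and -0.14 and 0 called. The smallest p belonged to Tsc22d3, a glucocorticoid-induced regulator, in each tissue (-0.17 ± 0.07 in cortex and -0.19 ± 0.07 in hippocampus), then to Plin4 in cortex (-0.83 ± 0.35) and Lcn2 in hippocampus (-0.90 ± 0.36). The mean of this list ran from 8.58 to 9.44 in CD33 ASO cortex, against 8.91 to 9.58 in CON ASO cortex, and from 8.67 to 9.41 in CD33 ASO hippocampus, against 9.00 to 9.64 in CON ASO hippocampus. Its deviations correlated with those of Cp at 0.37 in cortex and 0.61 in hippocampus, and with those of Mt1 at 0.30 in cortex and 0.56 in hippocampus. For Mt2 the coefficient was 0.07 in cortex and 0.25 in hippocampus, and for Mt3 -0.04 and -0.08. Those of Fth1, Ftl1, Tfrc and Trf lay between -0.27 and 0.11 in cortex and between -0.20 and 0.22 in hippocampus. Whether the glucocorticoid-responsive genes have a part in the Cp or Mt1 values was not tested. At 14 days 0 of 15 were called, with Per1 (-0.24 ± 0.09) and Lcn2 (-0.45 ± 0.39) first in cortex and Sult1a1 (0.31 ± 0.17) and Pdk4 (0.21 ± 0.12) first in hippocampus. Of 5 tested targets of NRF2, the transcription factor of the oxidative stress response, 0 were called, and Nqo1, a quinone reductase, differed by 0.22 ± 0.11 in cortex and 0.27 ± 0.11 in hippocampus at 28 days (adjusted p = 0.604 and 0.382). Next came Txnrd1 in cortex (-0.16 ± 0.16) and Gclm in hippocampus (-0.14 ± 0.06), and at 14 days Gclm (0.11 ± 0.08) in cortex and Nqo1 (0.31 ± 0.13) in hippocampus.

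The second comparison set 28 against 14 days of infusion, averaged over both ASOs. In cortex 0 of 8 members were called, as was no gene at all (0%, and 7.9% at an unadjusted p under 0.05), and in hippocampus 0 of 8 were called beside 1.08% of all genes (15.2% at an unadjusted p under 0.05). In cortex the differences were 0.08 ± 0.03 for Mt1 (adjusted p = 0.469) and 0.21 ± 0.11 for Mt2 (adjusted p = 0.634), each above 0 on 6 of 6 chips, and -0.10 ± 0.04 for Trf (adjusted p = 0.522), below 0 on 6 of 6 chips. In hippocampus Fth1 differed by 0.04 ± 0.02 (adjusted p = 0.287) and its second probe by 0.01 ± 0.03. Among the pathway lists, Pcbp1, which delivers iron to ferritin, rose in hippocampus by 0.15 ± 0.03 (adjusted p = 0.0180), and so did Lcn2, a siderophore-binding acute-phase protein of the glucocorticoid list, by 1.09 ± 0.28 (adjusted p = 0.0406). No zinc and copper gene passed, and Slc30a10 lay at the threshold in hippocampus (-0.18 ± 0.05, adjusted p = 0.0504).

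The third comparison set frontal cortex against hippocampus within each ASO. The 3 metallothioneins and Trf were lower in cortex with CD33 ASO, and Mt1, Mt3 and Trf with CON ASO. In the authors' processed values each tissue was scaled by itself. There Mt3 remained lower with each ASO (-0.11 and -0.12) and Mt2 with CD33 ASO (-0.25). Mt1 (-0.03 with CD33 ASO and 0.0074 with CON ASO) and Trf (-0.09 and -0.06) were not called there. The median difference over all genes was 0.055 with CD33 ASO and 0.057 with CON ASO in the authors' values. It was -0.022 with each ASO in the values used here, so the scales differ by a shift over all genes. With CD33 ASO 4 of 8 members were called, all lower, in a contrast where 63.8% of all genes were called, 29.7% higher and 34.1% lower, and with CON ASO 3 of 8 were called, all lower, where 65.3% were called, 30.7% higher and 34.6% lower. A call between these tissues was therefore no more frequent among the members than among all genes. Each tissue had chips of its own, so a difference between tissues cannot be separated from one between the chip sets. The tissues of an animal were on different chips, so counts within animals do not remove this limit. With the chip as a random block in place of the animal, an alternative added after the data were seen, 4 of 8 were called with CD33 ASO and 1 of 8, Mt3, with CON ASO.

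Mt3 had the smallest p of the 8. At 28 days its lowest, median and highest values were 12.77, 13.10 and 13.40 in cortex, against 13.09, 13.23 and 13.49 in hippocampus, with CD33 ASO, and 13.02, 13.20 and 13.31 in cortex, against 13.22, 13.40 and 13.84 in hippocampus, with CON ASO. The tissues overlapped, but within animals Mt3 was lower in cortex in 17 of 21 CD33 ASO and in 20 of 22 CON ASO animals. The difference was -0.17 ± 0.04 with CD33 ASO (adjusted p = 1.47e-04) and -0.19 ± 0.04 with CON ASO (adjusted p = 4.0e-05). Of 9 tested astrocyte markers, 3 were called higher and 4 lower in cortex with CD33 ASO, and 3 higher and 2 lower with CON ASO; their part in the metallothionein differences was not tested.

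The Mt1 difference was -0.10 ± 0.03 with CD33 ASO (adjusted p = 2.43e-04, 17 of 21 animals) and -0.07 ± 0.03 with CON ASO (adjusted p = 0.0166, 16 of 22 animals). Within animals the Mt1 difference ran from -0.27 to 0.09 with CD33 ASO and from -0.29 to 0.14 with CON ASO. Mt2 varied more, from -1.38 to 0.47 within CD33 ASO animals and from -1.06 to 0.93 within CON ASO animals. Its mean difference was -0.37 ± 0.10 with CD33 ASO (adjusted p = 5.93e-04, lower in cortex in 17 of 21 animals) and -0.21 ± 0.10 with CON ASO, where it missed the threshold (adjusted p = 0.0513, 16 of 22 animals).

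Trf, the iron carrier, was lower in cortex by a difference of -0.16 ± 0.05 with CD33 ASO (adjusted p = 0.00373, 16 of 21 animals) and -0.12 ± 0.05 with CON ASO (adjusted p = 0.0212, 16 of 22 animals). Choroid plexus, a known source of transferrin, differed between the same dissections: 8 of its 9 tested markers were called lower in cortex with CD33 ASO and 9 of 9 with CON ASO (medians -1.88 and -2.04). The mean of these 9 markers ran from 6.51 to 7.30 in CD33 ASO cortex, against 7.58 to 11.1 in CD33 ASO hippocampus, and from 6.63 to 7.15 in CON ASO cortex, against 7.74 to 11.0 in CON ASO hippocampus. With that mean as a covariate the Trf difference was 0.05 with CD33 ASO (adjusted p = 0.526) and 0.11 with CON ASO (adjusted p = 0.199), and of the 8 members only Mt2 with CD33 ASO was called (-0.37, adjusted p = 0.0348). The ranges of this covariate in cortex and hippocampus do not overlap, so that model has no arrays of like choroid plexus level to compare.

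The main probes of Fth1, Ftl1, Tfrc and Cp were not called between tissues in either ASO, although Cp was called higher in cortex with the pericyte and fibroblast mean as a covariate (0.50 with CD33 ASO and 0.25 with CON ASO). Second probes disagreed: that of Tfrc was higher in cortex by 0.11 ± 0.04 with CD33 ASO (adjusted p = 0.0105) and 0.13 ± 0.04 with CON ASO (adjusted p = 0.0021), where the main probe differed by 0.03 ± 0.04 and 0.02 ± 0.04. The less saturated second probe of Fth1 was higher by 0.07 ± 0.02 with CON ASO (adjusted p = 0.0108). With CD33 ASO that probe differed by 0.04 ± 0.02 and was not called (adjusted p = 0.150). In the authors' processed values the main Fth1 probe was itself higher in cortex, by 0.08 with CD33 ASO and 0.10 with CON ASO (adjusted p = 2.57e-05 and 7.96e-07), against -0.0049 and 0.0093 in the values used here, neither called. The median difference over all genes was 0.055 with CD33 ASO and 0.057 with CON ASO in the authors' values. In the values used here it was -0.022 with each ASO. So the Fth1 differences in the authors' values include a shift seen over all genes. The cause of the Fth1 change between these sets of values was not tested. In the contrast of the ASO effects between tissues, 0 of 8 members were called (0.0103% of all genes, and 7.19% at an unadjusted p under 0.05).

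**Figure D4:**
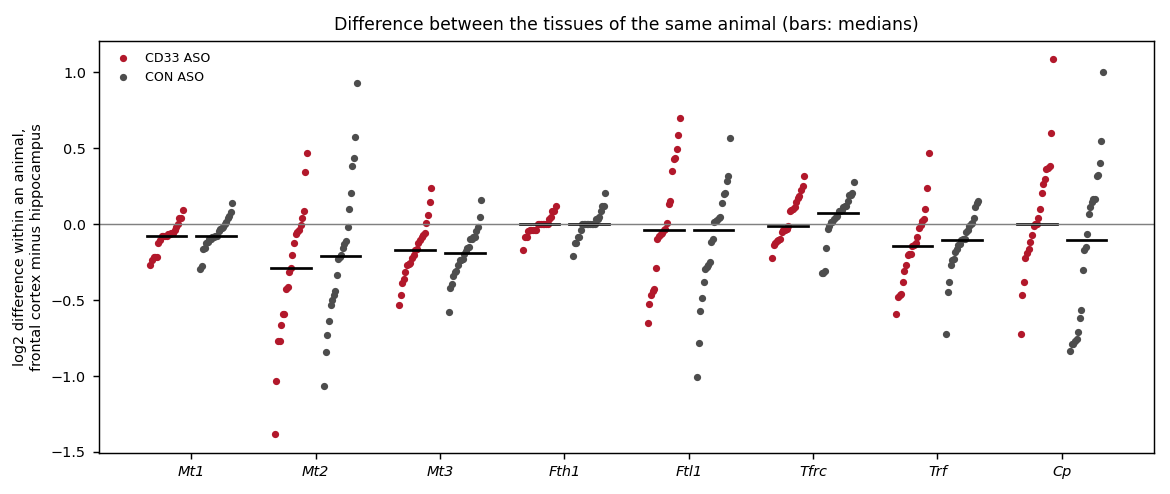
Difference in normalized log2 intensity between frontal cortex and hippocampus of the same animal (y axis) for the 8 genes, with 1 point per animal for CD33 ASO (red, 21 animals) and CON ASO (grey, 22 animals) and black bars at the medians. Most points of Mt1, Mt2, Mt3 and Trf lie below 0, while those of Fth1 and Ftl1 lie on both sides. In the authors' processed values the Mt1 difference turns to 0.0074 with CON ASO, where the median over all genes is 0.057.

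The means of all 8 groups were also put in order for each gene. Mt3 spanned 0.33, from 13.11 ± 0.17 in CD33 ASO cortex at 28 days to 13.44 ± 0.14 in CD33 ASO hippocampus at 14 days (SD). Mt2 spanned 0.57, from 7.64 ± 0.32 in CD33 ASO cortex to 8.21 ± 0.29 in CD33 ASO hippocampus, both at 14 days, and Mt1 0.15 between the same groups. Cp spanned 0.64, from 7.57 ± 0.30 in CD33 ASO hippocampus at 14 days to 8.21 ± 0.36 in CON ASO hippocampus at 28 days. Trf spanned 0.33, Ftl1 0.34, Tfrc 0.13 and Fth1 0.08. For each of the 8 genes, 0 of the 7 gaps between neighbouring group means exceeded the larger standard deviation of the pair. The 7 gaps share 1 span and the SD is the spread of single arrays, so this count cannot tell whether group means differ.

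The other genes of the pathways are counted here against the same background, where 63.8% of all genes were called with CD33 ASO and 65.3% with CON ASO, and nothing particular to a list is read from its count. Of 25 iron genes 7 were higher and 10 lower in cortex with CD33 ASO, and 4 higher and 13 lower with CON ASO. Steap1, of a family of metalloreductases (-1.02 ± 0.21 with CD33 ASO and -1.18 ± 0.21 with CON ASO), Scara5 (-0.74 ± 0.15 and -0.87 ± 0.15) and Tfr2, the second transferrin receptor (-0.80 ± 0.07 and -0.62 ± 0.07), were lower in cortex, and Lrp1, the receptor that takes up haem bound to hemopexin, was higher (0.40 ± 0.07 and 0.41 ± 0.07). Of 27 zinc and copper genes 5 were higher and 9 lower with CD33 ASO, and 7 higher and 11 lower with CON ASO. The zinc transporters Slc39a10 (1.28 ± 0.10 with CD33 ASO and 1.35 ± 0.10 with CON ASO) and Slc30a4 (0.90 ± 0.12 and 0.83 ± 0.12) were higher in cortex, and Slc39a4 (-0.84 ± 0.13 and -1.17 ± 0.13) and Slc39a11 (-0.57 ± 0.03 and -0.59 ± 0.03) were lower. Of the 15 glucocorticoid-responsive genes 2 were higher and 6 lower with CD33 ASO, led by Cdkn1a (1.14 ± 0.11), Fkbp5 (-0.80 ± 0.08), Ddit4 (-0.55 ± 0.07) and Errfi1 (-0.49 ± 0.05), and 3 higher and 5 lower with CON ASO, led by Cdkn1a (0.95 ± 0.11), Fkbp5 (-0.75 ± 0.08), Errfi1 (-0.60 ± 0.05) and Per1 (0.50 ± 0.06). Of the 5 NRF2 targets 3 were higher and 1 lower with CD33 ASO, and 2 higher and 1 lower with CON ASO, with Txnrd1 higher (0.54 ± 0.11 with each ASO), Srxn1 higher (0.22 ± 0.05 and 0.18 ± 0.05), Nqo1 lower (-0.42 ± 0.08 and -0.30 ± 0.08) and, with CD33 ASO, Gclm higher (0.20 ± 0.04). Steap1 and Scara5 were detected on 18 arrays each, so their differences are between levels near background.

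How the members varied together was read from deviations from the group mean. Of 28 pairs of members, 1 correlated in cortex and 0 in hippocampus, with p-values adjusted over the 56 pairs (100000 permutations within groups). The pair was Mt1 and Mt3, with a Pearson r of 0.51 over 46 cortical arrays (permutation p = 0.00031, adjusted p = 0.0174) and a Spearman rho of 0.475 (p = 0.00094, adjusted p = 0.0526), and with an r of 0.43 without the 2 arrays farthest from the median of Mt1. After chip means were also removed r was 0.49 (adjusted p = 0.0213). In hippocampus the same pair had an r of 0.26 (adjusted p = 0.686), and the difference between the tissues was not tested. Mt1 and Mt2, which sit next to each other, had an r of 0.30 in hippocampus (adjusted p = 0.686), and Trf and Cp one of 0.39 there (permutation p = 0.00602, adjusted p = 0.169).

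**Figure D5:**
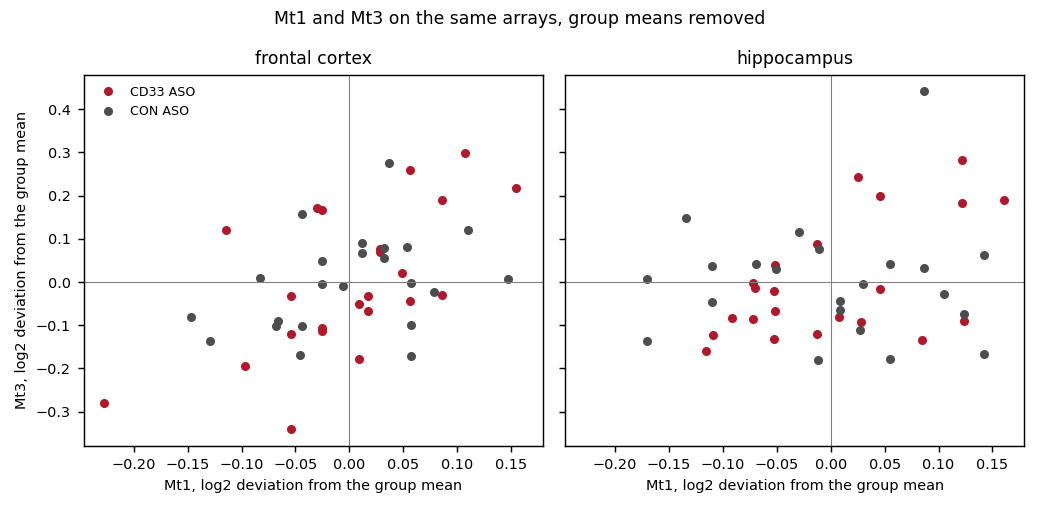
Deviation of Mt3 (y axis) against deviation of Mt1 (x axis) from the mean of the array's group, in normalized log2 intensity, with 1 point per array for CD33 ASO (red) and CON ASO (grey) in frontal cortex and in hippocampus. The cortical points slope upward (r = 0.51, 46 arrays) and the hippocampal points scatter more widely (r = 0.26, 44 arrays).

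Between the tissues of an animal, 0 of 8 members correlated at the threshold over 43 animals. Mt1 had an r of 0.39 (permutation p = 0.0109, adjusted p = 0.0558, Spearman rho 0.37, adjusted p = 0.150) and an r of 0.43 without the 2 farthest animals, and Tfrc an r of 0.39 (permutation p = 0.0140, adjusted p = 0.0558, Spearman rho 0.33, adjusted p = 0.150). With chip means also removed Mt1 passed, with an r of 0.46 (permutation, adjusted p = 0.0211, Spearman adjusted p = 0.0359), and Mt3 passed by rank only (Spearman rho 0.42, adjusted p = 0.0359, Pearson r 0.34, adjusted p = 0.0767). Without animal 7 Mt1 and Tfrc each passed by Pearson r (permutation, adjusted p = 0.0453) and not by rank (Spearman adjusted p = 0.116). The Cp level of an animal in cortex had an r of 0.18 with that in hippocampus (adjusted p = 0.385).

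The genes whose deviations were most like those of each member differed between tissues. For Mt1 they were Glycam1 (0.68), Plin4 (0.63) and Pnpla7 (0.57) in hippocampus, and Fam107a (0.51), Mt3 (0.51) and Dcxr (0.50) in cortex, and Plin4 is on the glucocorticoid list. For Trf they were Mag (0.54), a myelin glycoprotein, Phgdh (0.53) and Ephb1 (0.51) in cortex, and Adssl1 (0.73), Cd63 (0.70) and Sncg (0.67) in hippocampus. Trf correlated with the myelin list at 0.43 in cortex and 0.37 in hippocampus, with the endothelial list at 0.46 and 0.33, and with the choroid plexus list at 0.04 and 0.48. For Mt3 they were Vmac (0.65), Mier1 (0.58) and Rps24 (0.56) in cortex and Cops2 (0.67), Scly (0.58) and Apoa2 (0.55) in hippocampus. For Tfrc they were Cwc22 (0.54), Chst8 (0.54) and Aph1a (0.53) in cortex and Sf3b4 (0.70), Trim41 (0.64) and Fbxo34 (0.63) in hippocampus. For Mt2 they were Polr3a (0.54), Myl6 (0.53) and Edf1 (0.50) in cortex and Nxph4 (0.60), Med15 (0.56) and Bcar1 (0.54) in hippocampus. Fth1 was nearest to Mro (0.60), Nsfl1c (0.58) and Ube2a (0.57) in cortex and to Sgpl1 (0.55), Mib1 (0.53) and Myo9b (0.52) in hippocampus, with the few values its scale allows. Ftl1 was nearest to Xkr7 (0.55), Wdpcp (0.54) and Septin6 (0.54) in cortex and to Cdh20 (0.54), Arhgap24 (0.51) and Plau (0.51) in hippocampus. These are the 3 highest coefficients over the other genes tested in each case, and of the 8 members only Cp had genes in common between the tissues among them.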

How the data were processed

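Tissue RNA was hybridised to Illumina mouse bead arrays, and groups were taken from the labels. The deposited table pairs a signal intensity, not normalized between arrays, with a detection p-value for every probe and array. BeadStudio, GenomeStudio and Partek are named per the submitters' processing notes, without settings. The authors also deposited processed log2 values of 19542 of the 25697 probes, with 1 distribution for cortical arrays (median 7.29) and another for hippocampal arrays (median 7.18), used as an alternative. Median signal per array lay between 28.4 and 47.0, and 18348 probes had 1 symbol in the platform annotation.

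Here the neqc function (limma 3.58.1, R 4.3.3, offset 16) corrected and quantile-normalized the 90 arrays together. A probe was kept if its detection p-value fell below 0.01 on 9 or more arrays, and the kept probe with the highest mean represented a gene. Differences were tested with lmFit and eBayes, with Benjamini-Hochberg adjustment over 9741 genes and a threshold of 0.05, in a model of 4 groups per tissue. Contrasts between tissues used 8 groups with the animal as a random block (consensus correlation 0.128). Second probes were adjusted over all 14081 kept probes. A value after ± is a standard error for a difference and an SD for a mean. The fits were tested on simulated data.

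The members and lists were chosen with earlier results of these data known. Named were all members, up to 4 passing genes of a pathway list or else the 2 of smallest p, and the 3 genes most like each member. Alternatives changed the background correction, scaling, detection filter, offset, chip and array weights, left out animal 7, or added covariates; the pericyte and fibroblast covariate and the chip as a random block were added after the data were seen.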

Additional observations from a re-analysis of the deposited data

Results flagged for a closer look

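Of the 32 combinations of a member and a group of 9 arrays, 4 held an array that stood farther from the rest than Dixon's critical value allows, where chance alone gives about 1 in 20. Mt1 on the array of CD33 ASO cortex at 14 days, replicate 4, was 14.61, with the nearest array at 14.81. The other 3 concern the coarse scale of the main Fth1 probe: 15.11 in CD33 ASO cortex at 14 days, replicate 5, 15.11 in CD33 ASO hippocampus at 14 days, replicate 1, and 15.07 in CON ASO cortex at 14 days, replicate 2, each with its nearest array at 15.19.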

How the results depend on the processing

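The count of 0 members called between ASOs held under all alternatives in cortex, in the 14-day and averaged comparisons of hippocampus, and in the duration and interaction contrasts; in hippocampus at 28 days array weights gave 1, Cp (-0.64, adjusted p = 0.0430). Over the 12 alternatives the Cp difference at 28 days ran from -0.34 to -0.25 in cortex (adjusted p = 0.0905 to 0.511) and from -0.66 to -0.40 in hippocampus (adjusted p = 0.0430 to 0.299). With the replicate block it was -0.34 in cortex (adjusted p = 0.131) and -0.64 in hippocampus (adjusted p = 0.0911), and the block moved no count of members called. Same-numbered animals of the ASOs correlated above 0.1 in 11 of 14 and 5 of 9 pairs of cortex at 28 and 14 days and in 5 of 13 and 3 of 9 of hippocampus, and best with their own number in 4, 3, 3 and 2, so the numbers were not taken as pairs. For 28 against 14 days the block gave 383 genes called in cortex, against 0 without it, and 1.58% of genes in hippocampus, against 1.08%. That hippocampal share was 2.66% with array weights, 1.82% without animal 7, 0.585% with median scaling and 0.474% with no filter; in cortex array weights gave 2 genes and leaving out animal 7 gave 1, as it did for the ASOs at 14 days. In the ASO comparisons at 28 days the genes called, 46 in cortex and 40 in hippocampus, were 23 and 28 with the pericyte and fibroblast covariate and 62 and 62 with array weights; averaged over infusions in cortex, 62 became 38 with that covariate. Of the 40 in hippocampus 16 were higher and 24 lower, against 32 and 21 with median scaling, and of the 66 averaged over infusions 37 and 29, against 54 and 26. At 14 days in hippocampus 2 genes were called, and 1 when only genes detected on 50% of arrays were tested.

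Between tissues, members called with CD33 ASO were 1 with the choroid plexus covariate, and with CON ASO 0 with that covariate and 1 with the chip as a random block. Trf turned to 0.0545 with CD33 ASO and 0.113 with CON ASO under the choroid plexus covariate. With the pericyte and fibroblast covariate Cp was called higher in cortex, at 0.50 with CD33 ASO (adjusted p = 7.2e-05, against 0.10 and not called without it) and at 0.25 with CON ASO (adjusted p = 0.0374), where it turned. In the authors' processed values, where each tissue has a distribution of its own, Fth1 with CD33 ASO turned to 0.0823 and Mt1 with CON ASO to 0.0074; the genes called with CD33 ASO were 4016 higher and 2071 lower there, against 2894 and 3322 (2359 and 3986 with median scaling), and with CON ASO 4090 and 2113, against 2988 and 3374. Over all genes the median difference in the authors' values was 0.055 with CD33 ASO and 0.057 with CON ASO, against -0.022 with each ASO here. Members correlated between tissues by Pearson r were 1 with chip means removed and 2 without animal 7. Of the differences of single members under the alternatives, 1213 kept sign and call, 12 lost and 8 gained a call, 5 turned with a call under either setting, and 34 uncalled ones changed sign; the causes were not tested. Signal over background limits Ftl1, and the top of the scale limits Fth1 and Mt1.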
